A study of Mus musculus with 2 samples.

Results

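Heat shock and immediate early genes are described here in leukocytes sorted from mouse liver tumours. The members are 35 genes taken by symbol from a list of names, 15 of the heat shock response and 20 of the immediate early response, and all 35 were found among the 32285 genes of both count tables. C57BL/6 mice were given 5e9 CFU of Akk by mouth (Akkermansia muciniphila, a gut bacterium) or PBS for 2 weeks, then also through 2 weeks of MCD diet (deficient in methionine and choline). Luciferase-labelled RIL-175 cells, a mouse liver cancer line, were then implanted orthotopically in the liver, dosing stopped for 6 days after surgery, and it was resumed to the end. Both groups therefore share the diet, the implant, the collagenase IV digestion of the tumour, the Percoll gradient and the sort for live CD45+ cells. Each group is 1 droplet library, called PBS or AKK. The sources used here do not say whether a library pools mice, nor how old the mice were. With 1 library per group no test between them was possible, so higher and lower describe these 2 libraries only. The 95% intervals printed with ratios cover counting error only.

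After filtering, 4646 PBS and 6177 AKK cells remained, with medians of 6743 and 6347 UMIs per cell. A UMI (unique molecular identifier) counts 1 captured transcript, near its 3′ end. Levels are UMIs per 1000000 UMIs of a cell class, written CPM, and ratios are AKK over PBS. Clusters fell into 15 classes named from marker genes, written X-like, and 8 of them had at least 100 cells in each library and were compared. Although the sort was for CD45+ cells, 156 PBS and 111 AKK cells carried keratin and other epithelial markers and form a tumour/epithelial-like class. Another cluster, of 170 PBS and 46 AKK cells with a median of 691.5 UMIs, was left unnamed. The libraries shared 8 cell barcodes.

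The heat shock response is the transcription programme that the factor Hsf1 starts when proteins misfold. Its products are chaperones, which hold or refold proteins, and cochaperones, which steer the chaperones. Immediate early genes are switched on within minutes of a signal without new protein synthesis. Most encode transcription factors, and several, such as the Dusp phosphatases, damp the same signal. Both sets are also known to be induced while tissue is digested to free single cells. No undigested sample was measured, so RNA made before and during digestion cannot be told apart here.

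Promoter sequences from RefSeq (build GRCm38.p6) were searched for the motifs through which these programmes are known to act, over windows of 250 bases before to 50 after each start. A window was found for 11 heat shock and 17 immediate early members. None was found for Hspa8, Hsp90aa1, Hsp90ab1, Hsf1, Egr1, Egr3 and Ier2. The pair of inverted repeats that heads a heat shock element, GAANNTTC or TTCNNGAA on either strand, was in 10 of the 11 heat shock and 3 of the 17 immediate early genes, against 17.0% of all 27025 genes. The longer form, GAANNTTCNNGAA or TTCNNGAANNTTC, which contains the shorter, was in Chordc1, Hspd1, Hspe1 and Hsph1 and in 0 of 17 immediate early genes, against 0.662% of all genes. Hspd1 and Hspe1 start next to each other on opposite strands, so their windows may hold the same site, counted for both. A match describes the letters only and does not show that a factor binds. Windows of 180 bases, from 150 before the start to 30 after it, are shown for 5 heat shock genes, because they carry the motif and their levels are followed below, with the matched bases in capitals. They lie at chr17:34972127-34972306 for Hspa1a, chr17:34959209-34959388 for Hspa1b, chr1:55087903-55088082 for Hspd1 and chr5:149636307-149636486 for Hsph1, all on the minus strand, and at chr9:18292117-18292296 for Chordc1 on the plus strand.
Hspa1a: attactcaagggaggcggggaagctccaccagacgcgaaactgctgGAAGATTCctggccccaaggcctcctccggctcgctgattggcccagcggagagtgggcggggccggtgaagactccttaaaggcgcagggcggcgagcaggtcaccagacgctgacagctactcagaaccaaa
Hspa1b: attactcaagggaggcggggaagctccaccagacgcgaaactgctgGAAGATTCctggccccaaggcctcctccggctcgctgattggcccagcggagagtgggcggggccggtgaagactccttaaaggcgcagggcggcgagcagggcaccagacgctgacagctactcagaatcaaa
Hspd1: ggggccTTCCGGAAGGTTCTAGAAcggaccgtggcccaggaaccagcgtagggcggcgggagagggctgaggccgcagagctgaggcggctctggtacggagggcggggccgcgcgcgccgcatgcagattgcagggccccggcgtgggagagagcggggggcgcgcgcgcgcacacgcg
Chordc1: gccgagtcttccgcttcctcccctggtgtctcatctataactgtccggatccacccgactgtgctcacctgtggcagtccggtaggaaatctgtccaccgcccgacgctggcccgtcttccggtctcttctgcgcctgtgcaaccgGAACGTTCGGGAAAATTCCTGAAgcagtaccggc
Hsph1: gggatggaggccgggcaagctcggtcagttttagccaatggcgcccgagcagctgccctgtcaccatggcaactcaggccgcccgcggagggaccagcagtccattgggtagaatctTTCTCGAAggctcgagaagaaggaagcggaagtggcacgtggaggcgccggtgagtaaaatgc
For Hspd1 and for Hsph1, 1 of the 2 starts listed is shown. The printed bases of Hsph1 hold only the shorter form, and its longer match lies downstream of them, within the searched window. The Hspa1a and Hspa1b windows matched at 178 of 180 bases (98.9%), and their element is the same.

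For the immediate early genes the cAMP response element TGACGTCA was in Btg2 and Dusp1 (2.03% of all genes) and the CArG box, the site of serum response factor, in Egr2 (1.81%). The AP-1 site TGANTCA was in 0 of 17 immediate early windows and in Bag3 (8.97%). Windows of Dusp1 (chr17:26508443-26508622, minus strand) and Egr2 (chr10:67537720-67537899, plus strand, 1 of the 5 starts listed, shown because it holds the box) are given as examples, with the element in capitals.
Dusp1: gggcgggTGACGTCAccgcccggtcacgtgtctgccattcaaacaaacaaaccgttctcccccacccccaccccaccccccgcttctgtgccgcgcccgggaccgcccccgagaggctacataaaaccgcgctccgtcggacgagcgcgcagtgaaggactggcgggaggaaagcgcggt
Egr2: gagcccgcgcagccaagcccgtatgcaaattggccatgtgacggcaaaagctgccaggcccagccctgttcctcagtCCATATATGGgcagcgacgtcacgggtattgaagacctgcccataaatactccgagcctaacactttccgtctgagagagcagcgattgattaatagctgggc

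The summed level of each list depended first on the cell class. Heat shock members took 0.638% of UMIs in PBS tumour/epithelial-like cells and 0.463% in myeloid precursor-like cells, the highest of the 12 classes whose cells numbered 30 or more per library. They took 0.144% in plasma-like and 0.156% in neutrophil-like cells, the lowest. Neutrophil-like and tumour/epithelial-like cells changed places for the immediate early members. These took 1.51% of UMIs in PBS neutrophil-like cells and 1.11% in macrophage-like cells, against 0.471% in precursor-like and 0.370% in tumour/epithelial-like cells. In single cells thinned to 2325 UMIs each, the median PBS neutrophil-like cell held 36 immediate early and 2 heat shock UMIs. The median tumour/epithelial-like cell held 8 and 14. The AKK medians were 37 and 2 in neutrophil-like cells and 6 and 14 in tumour/epithelial-like cells, so the contrast between the classes was present in both libraries.

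**Figure D1:**
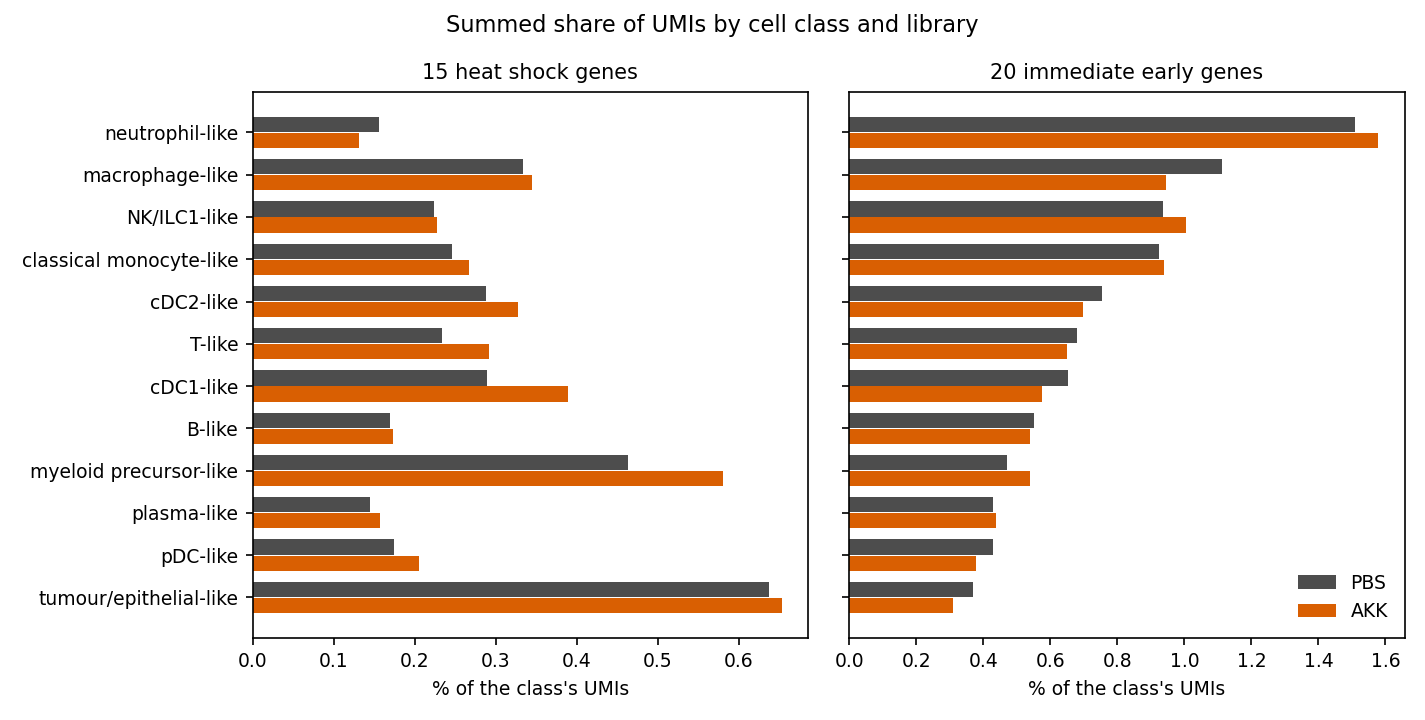
Summed share of a class's UMIs (percent, horizontal) for the 15 heat shock (left) and the 20 immediate early members (right) in 12 classes of 30 or more cells per library, 1 bar per library. Neutrophil-like cells sit highest for immediate early genes (1.51% in PBS, 1.58% in AKK) and near the bottom for heat shock genes, and tumour/epithelial-like cells the reverse.

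Between the libraries the sums differed by less than they did between classes. Over all kept cells the heat shock share was 0.334% in PBS and 0.315% in AKK, a ratio of 0.942 (0.936 to 0.948), and the immediate early share 0.870% and 0.840%, a ratio of 0.966 (0.962 to 0.969). These sums mix classes whose sizes differ. With the clusters given equal weight in both libraries the heat shock ratio turned to 1.03. Of the 35 members, 2 were past 1.5-fold over all cells, Hspa1a and Hspa1b, both lower in AKK, and 0 were higher, where 8.82% of all measured genes were that much lower and 6.89% higher. The median log2 ratio was -0.07 for the members and 0.02 for all genes.

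**Figure D2:**
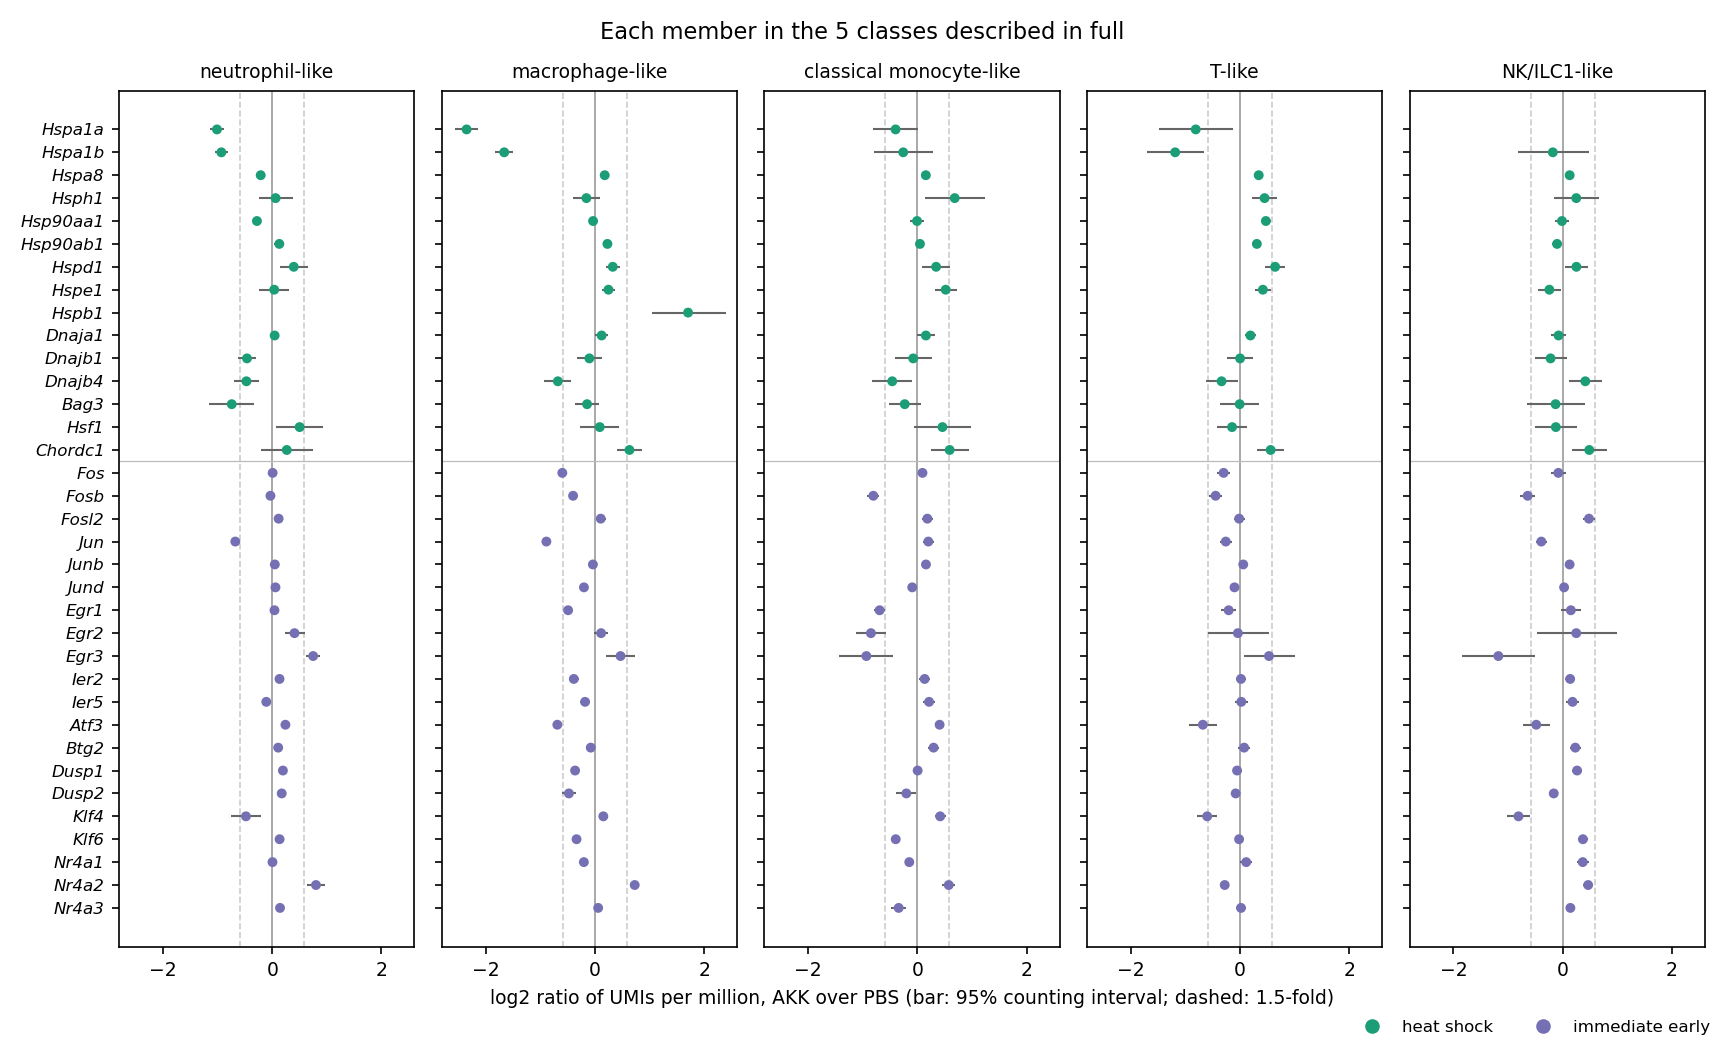
Log2 ratio of CPM, AKK over PBS (horizontal), for each member in 5 classes, with 95% counting intervals as bars, dashed lines at 1.5-fold, and members under 50 UMIs over both libraries left blank. Hspa1a and Hspa1b have the lowest ratios in macrophage-like cells (0.197 and 0.317), Chordc1 lies right of the line of equality in all 5 panels, and the macrophage-like point of Hspb1 rests on 1 cell.

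Hspa1a and Hspa1b encode the stress-inducible cytosolic Hsp70 and lie close together on chromosome 17 (GRCm38, 34969190 to 34972156 and 34956436 to 34959238). Their coding parts are 99.4% identical (1918 of 1929 aligned bases), so the division of reads from that part is uncertain. The parts after it are 47.3% identical, which leaves more differences to divide reads by. How many reads came from each part is not known here, and the genes are read as a pair. In macrophage-like cells Hspa1a was at 160 CPM in PBS and 31.4 in AKK, a ratio of 0.197 (0.170 to 0.226). Hspa1b was at 166 and 52.5, a ratio of 0.317 (0.282 to 0.355). In neutrophil-like cells Hspa1a was at 117 and 58.0, a ratio of 0.496 (0.452 to 0.544). Hspa1b there was at 148 and 77.4, a ratio of 0.525 (0.484 to 0.568). T-like cells were lower in AKK too at a far lower level, 8.30 against 4.73 CPM for Hspa1a (0.570, 0.358 to 0.911) and 15.5 against 6.81 for Hspa1b (0.439, 0.305 to 0.629). In classical monocyte-like cells the Hspa1a interval included 1, at 23.9 and 18.1 CPM (0.758, 0.568 to 1.01), and in NK/ILC1-like cells so did that of Hspa1b, at 11.7 and 10.3. Macrophage-like cells were the highest class of both genes in PBS, and neutrophil-like cells in AKK.

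The Hsp70 pair came from few cells. In PBS neutrophil-like cells 178 of 2088 cells held the 1394 Hspa1a UMIs and 9 cells held 50% of them, with 203 in the highest cell. In AKK 108 of 2574 cells held 690 UMIs and 10 held 50%. The constitutive Hspa8 was spread over many more, 286 PBS cells holding 50%, and so was Egr1, with 294. In macrophage-like cells 9 of 600 PBS cells and 7 of 480 AKK cells held 50% of Hspa1a, and the highest cells held 264 and 36 UMIs. After thinning every cell to 2325 UMIs, Hspa1a was found in 11.2% of PBS and 4.91% of AKK macrophage-like cells (30.5% and 14.4% before thinning). In neutrophil-like cells it was found in 5.39% and 2.50% (8.52% and 4.20% before). Thinning left out 31 and 32 macrophage-like and 176 and 290 neutrophil-like cells that were shallower. No class is known to lack Hspa1a. The lowest thinned share among the compared classes was 0.654% in PBS, in B-like cells with a median depth of 8334.5 UMIs, and 0.469% in AKK, in T-like cells with a median of 8886. The macrophage-like and neutrophil-like shares stood above these.

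The pair was found in the same cells more often than in others. Of thinned PBS neutrophil-like cells with Hspa1a, 35.6% also held Hspa1b, against 3.76% of those without, and in AKK 44.6% against 2.29%. Reads of the near-identical coding parts, divided between the genes, would also give such pairs, which was not tested. Several other members, but not all, were higher in the cells that held either gene. Hsph1, the Hsp110 that recharges Hsp70 with nucleotide, was 23.6 times the level of the cells with neither in PBS and 36.2 times in AKK. These values came from 42 and 57 UMIs in the cells with the pair. Before thinning, the highest neutrophil-like cell held 24 Hsph1 UMIs in PBS and 44 in AKK, beside 145 and 132 in all the others. The contrast was not computed without these cells. Hsp90aa1, the inducible form of Hsp90, was 5.39 and 6.15 times as high. Dnajb1 was 3.42 times as high in PBS but 0.954 times in AKK, and Dnajb4 5.69 and 0.925 times. These members thus differed in direction between the libraries, and their AKK values came from 12 and 5 UMIs in the cells with the pair. Jun, of the immediate early list, was 3.98 and 4.84 times as high, while Nr4a1 stood at 0.744 and 0.739 times. In neutrophil-like cluster 4, described below, Hspa1a was at 803 CPM in PBS and 432 in AKK, against 25.5 and 12.4 in the other clusters. The values of that cluster and these contrasts therefore share cells and are not separate observations. How many cells they share was not counted. In macrophage-like cells the cells with the pair stood at 5.95 and 3.13 times the others for Hsph1, from only 33 and 7 UMIs. For Hsp90aa1 they stood at 2.82 and 1.43 times, a smaller contrast than in neutrophil-like cells. Bag3 was not higher in them, at 0.998 and 0.779 times.

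In the small myeloid precursor-like class the pair was higher in AKK, but the difference rested on single cells. Hspa1a was at 12.2 CPM in PBS and 27.1 in AKK, and 101 of the 136 AKK UMIs were in 1 cell of 120. Without the cell with the most UMIs in each library the values were 9.78 and 7.06, a ratio of 0.722 (0.460 to 1.12). Hspa1b went from a ratio of 2.61 to 1.08 in the same way. In tumour/epithelial-like cells Hspa1b was at 8.03 CPM in PBS and 17.6 in AKK, a ratio of 2.19 (1.68 to 2.88), which was 1.86 (1.39 to 2.48) without the top cells and 0.404 with each cell weighted alike. Hspb1, the small heat shock protein Hsp27, was under 20 CPM in every class. Its macrophage-like ratio of 3.26 rested on 1 AKK cell with 53 of the 60 UMIs, and was 0.584 (0.207 to 1.45) without the top cells. Its highest class was tumour/epithelial-like, at 18.2 CPM in PBS and 14.4 in AKK.

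Of the other stress-inducible members, Chordc1, a cochaperone of Hsp90, was higher in AKK in all 8 compared classes. It was at 27.7 CPM in PBS and 43.0 in AKK macrophage-like cells, a ratio of 1.55 (1.32 to 1.82), and at 39.5 and 58.3 in T-like cells, a ratio of 1.47. In B-like cells it was at 33.2 and 53.8 (1.62). Only in neutrophil-like cells, its lowest class, did the interval reach below 1, at 5.87 and 7.07 (0.866 to 1.68). Classes of 1 library are not replicates of each other, and 7.72% of the 6322 genes measured in all 8 classes were likewise above 1 in each of them, against 2 of 30 members. Hsph1 was at 47.6 and 65.0 CPM in T-like cells and at 34.3 and 30.8 in macrophage-like cells. Hsp90aa1 was at 271 and 376 in T-like cells, a ratio of 1.39 (1.30 to 1.48), and at 392 and 323 in neutrophil-like cells, a ratio of 0.824. Hsph1 and Hsp90aa1 were thus higher in AKK T-like cells, and Hsp90aa1 was lower in AKK neutrophil-like cells.

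The Hsp40 proteins deliver clients to Hsp70. Dnaja1 had ratios of 0.949 to 1.33 in the compared classes, at 226 and 258 CPM in T-like cells. Dnajb1 was at 60.6 and 44.0 in neutrophil-like cells, a ratio of 0.726 (0.648 to 0.814), and at 49.1 and 49.2 in T-like cells. Dnajb4 was at 44.2 and 27.7 in macrophage-like cells, a ratio of 0.626 (0.527 to 0.740), but at 46.8 and 62.3 in NK/ILC1-like cells (1.33). Bag3, which couples Hsp70 to autophagy, was at 11.2 and 6.73 in neutrophil-like cells, a ratio of 0.598 (0.448 to 0.795), and near equal in T-like cells, at 22.5 and 22.4. Hsf1 itself was low throughout, at 17.7 and 22 CPM over all cells, and highest in B-like cells.

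The constitutive and mitochondrial chaperones were the bulk of the heat shock share outside neutrophil-like cells and differed less between libraries than the Hspa1 pair. Hspa8, the Hsp70 of unstressed cells, was at 736 CPM in PBS and 933 in AKK T-like cells, a ratio of 1.27 (1.22 to 1.32), and at 1142 and 1294 in macrophage-like cells, a ratio of 1.13. It was at 373 and 322 in neutrophil-like cells, its lowest class in both libraries. Hsp90ab1, the constitutive Hsp90, was at 834 and 978 in macrophage-like and at 650 and 805 in T-like cells, and tumour/epithelial-like cells held the most, 2373 and 2464. Hspd1 and Hspe1 encode the chamber and the lid of the mitochondrial chaperonin, Hsp60 and Hsp10, and start next to each other on opposite strands. Hspd1 was at 73.8 and 115 in T-like cells, a ratio of 1.56 (1.38 to 1.77), and above 1 in all 8 classes. Hspe1 was at 119 and 159 in T-like cells (1.34) and at 114 and 96.3 in NK/ILC1-like cells (0.845).

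Macrophage-like cells, with 600 PBS and 480 AKK cells, therefore held opposite differences within the heat shock list. Stress-inducible members summed to 0.113% of UMIs in PBS and 0.0881% in AKK (0.783, 0.759 to 0.807). Nearly all of that difference was in the Hspa1 pair, whose UMIs came from few cells. Hspa1a was at 160 and 31.4 CPM and Hspa1b at 166 and 52.5. Constitutive cytosolic members summed to 0.198% and 0.227% (1.15), and mitochondrial members to 0.0225% and 0.0274% (1.22). The whole list was at 0.334% and 0.344%, a ratio of 1.03, which became 1.11 without the Hspa1 pair and 0.977 without Hspa8. T-like cells differed in the whole list, 0.233% and 0.292% (1.25, 1.22 to 1.28), with constitutive members at 0.139% and 0.174% and mitochondrial at 0.0193% and 0.0274%. Their ratio depended on depth. It was 1.06 to 1.13 in the 3 ranges of cells under 12000 UMIs and 1.42 in deeper cells.

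The 3 T-like clusters differed in this ratio. A cluster led by Camk4, Rora, Ikzf2 and Icos, also marked by Il2ra and Ctla4, stood at 0.189% in 78 PBS cells and 0.325% in 131 AKK cells, a ratio of 1.72 (1.62 to 1.82), and 1.69 without the top cell of each library. The second was at 0.242% and 0.324%, a ratio of 1.34, which was 1.23 without the top cells. The largest cluster was at 0.243% and 0.268% (1.11). One AKK cell held 1012 heat shock UMIs of its 121657, the highest T-like cell. Whether these ratios differ between the clusters was not tested.

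**Figure D3:**
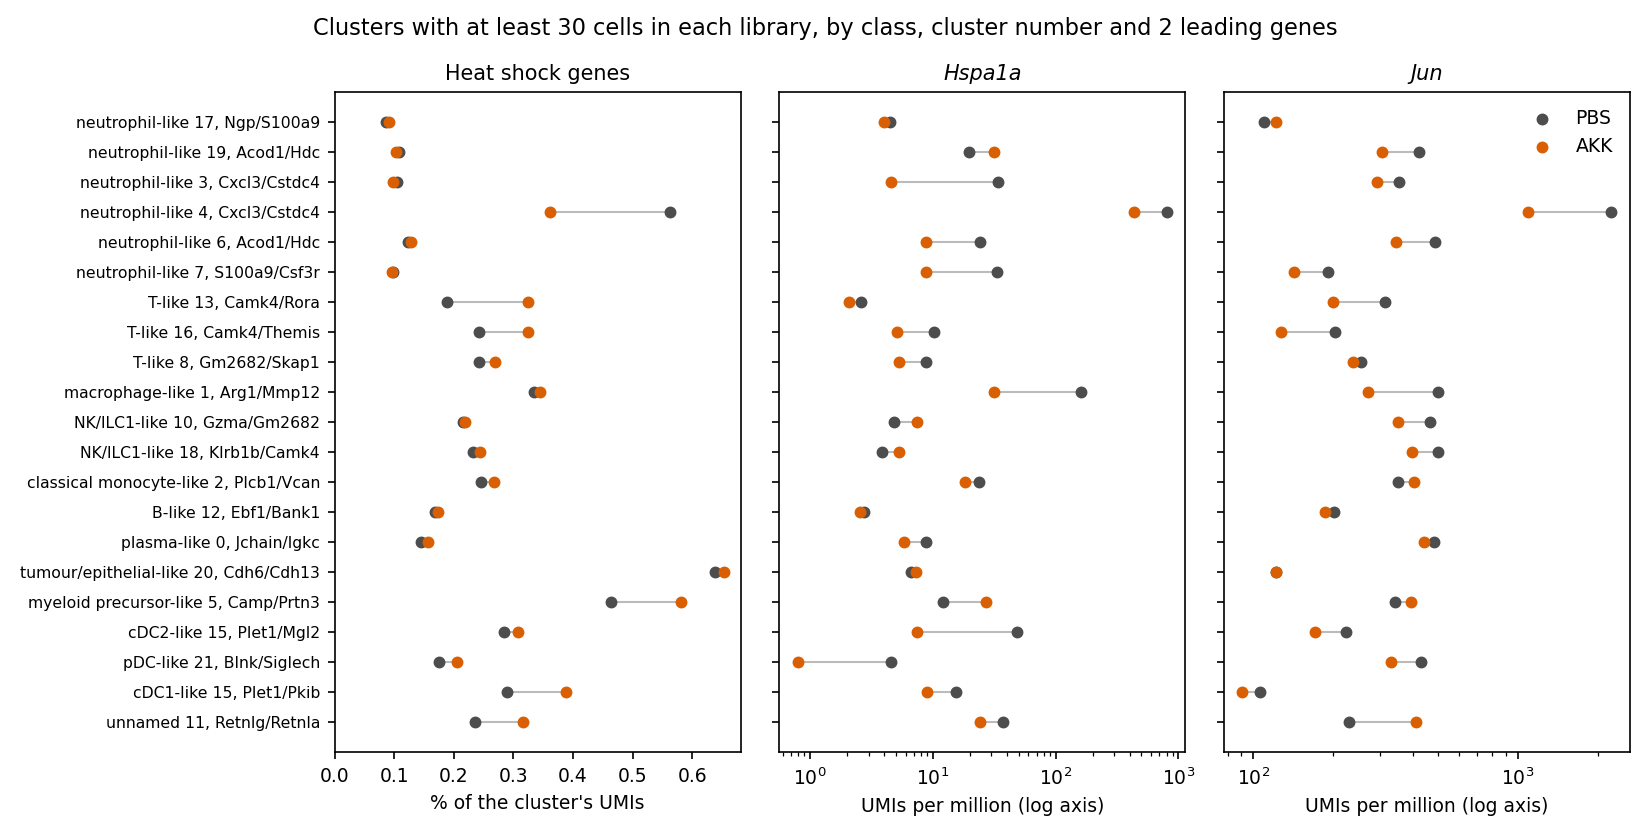
Heat shock share of UMIs (percent, left) and levels of Hspa1a and Jun (CPM, log axes) in each cluster with at least 30 cells in each library, 1 point per library, with the class, cluster number and 2 leading genes against all cells on the vertical axis. Neutrophil-like cluster 4, picked for the highest heat shock share among the neutrophil-like clusters, stands at 0.563% heat shock UMIs in PBS and 0.362% in AKK.

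In neutrophil-like cells the heat shock share was 0.156% in PBS and 0.131% in AKK, a ratio of 0.842 (0.824 to 0.860), and 1 of 6 clusters carried this difference. This cluster, number 4, was singled out after its values were seen, because its heat shock share was the highest of the 6. No member was used to form the clusters. Its higher heat shock share therefore follows from that choice and is not a separate result. The cluster had 285 PBS and 332 AKK cells, 13.6% and 12.9% of the class. Against other neutrophil-like cells its leading genes outside the lists were, in order, Ero1l, P4ha1, Fnip2, Bnip3, P2rx7, Fam162a, Hmox1 and Hilpda. Several of these, but not all, are known targets of hypoxia. Heat shock members took 0.563% of UMIs there in PBS and 0.362% in AKK. In the remaining neutrophil-like cells they took 0.101% and 0.103%, and without the cluster the ratio of the class was 1.02. The summed neutrophil markers were lower in the cluster, at 24603 and 14214 CPM against 94924 and 77231 in the others, and the median UMIs were 4576 and 3652.5 against 5008 and 4227. The part of these differences in the result was not tested.

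Within this cluster Hspa1a was at 803 CPM in PBS and 432 in AKK, against 25.5 and 12.4 in the other neutrophil-like cells. Hspa1b was at 1063 and 563 against 25.4 and 18.0. Hsph1 was at 103 and 91.2 against 2.38 and 5.47. Hsp90aa1 was at 1756 and 1260 against 210 and 208. The cluster was picked by the sum that includes these 4 chaperones, so their higher level there was partly set by that choice. Chordc1, also in the sum, was not higher in both libraries, at 6.42 and 4.64 against 5.80 and 7.36. Of the immediate early members, Jun was at 2248 and 1093 against 269 and 219, and Atf3 at 630 and 397 against 142 and 217. Nr4a1 was lower in the cluster, at 207 and 216 against 534 and 532. Inside the cluster the AKK level of Jun was 0.486 of the PBS level, and outside it 0.815. For Hspa1a these ratios were 0.538 and 0.485. Its UMIs were uneven, as 9 PBS and 10 AKK cells held 50% of those of the whole neutrophil-like class. The Hspa1a values of the cluster may therefore rest on few of its cells, and were not computed without them. Without the cell with the most heat shock UMIs in each library, the heat shock share of the cluster was 0.527% and 0.339%, a ratio of 0.644.

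**Figure D4:**
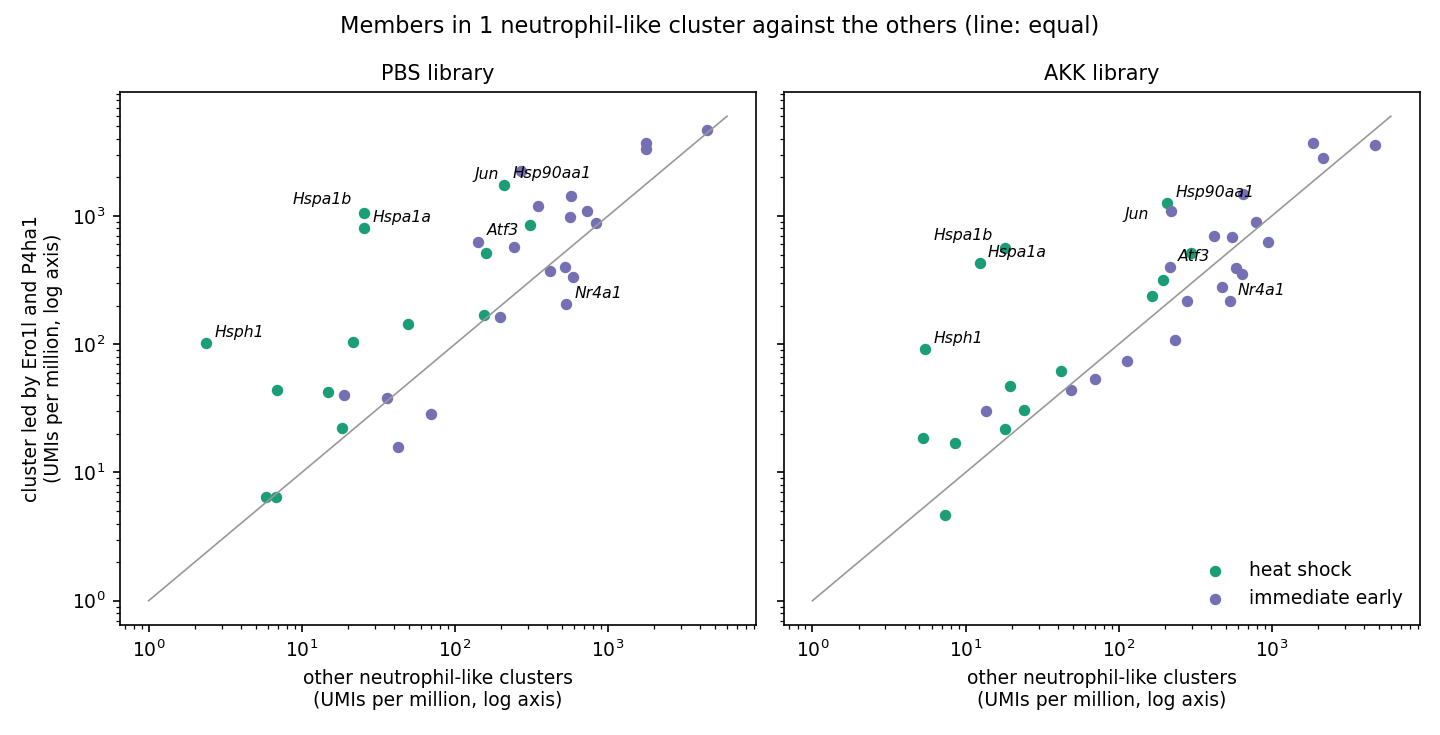
Level of each member in neutrophil-like cluster 4 (vertical, CPM, log axis) against the other neutrophil-like clusters (horizontal, CPM, log axis), by library, 1 point per member and a line of equality, with Hspb1 left out because it is 0 in a group. Hspa1a, Hspa1b and Hsph1 lie farthest above the line in both libraries, and Nr4a1 lies below it.

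Among the immediate early genes the AP-1 transcription factors come first, pairs of a Fos and a Jun protein. Junb was the most abundant member. It was at 4462 CPM in PBS and 4613 in AKK neutrophil-like cells, at 2465 and 2406 in macrophage-like cells, with ratios of 0.820 to 1.14 in the compared classes. Jun was more unequal, at 500 and 270 in macrophage-like cells, a ratio of 0.541 (0.513 to 0.570). In neutrophil-like cells Jun was at 502 and 314, a ratio of 0.626 (0.601 to 0.652), and in NK/ILC1-like cells at 482 and 368 (0.763). In monocyte-like cells it was the other way, at 353 and 405 (1.15). After thinning, 52.9% of PBS and 43.1% of AKK macrophage-like cells held a Jun UMI, and 41.2% and 34.7% of neutrophil-like cells. In monocyte-like cells these shares were 48.0% (42.3 to 53.8) and 46.9% (42.0 to 51.8), so they did not follow the higher AKK level there. Jund had ratios of 0.846 to 1.10 and was highest in plasma-like cells. The Jun gene overlaps the antisense gene Junos and Junb overlaps Prdx2, and the sources used here do not say whether the counting used strand.

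The Fos family was lower in AKK macrophage-like cells, 0.160% of UMIs against 0.120% (0.748, 0.729 to 0.768). Fos was at 895 and 593 CPM there, a ratio of 0.662 (0.638 to 0.687), and was near equal in neutrophil-like cells, at 447 and 450. The share of thinned macrophage-like cells with Fos was 66.8% and 63.4%, closer than the levels. Fosb was under 1 in all 8 classes, which 1.91% of the genes measured in all of them also were. It was at 362 and 207 CPM in monocyte-like cells (0.571), at 276 and 177 in NK/ILC1-like cells (0.641) and at 281 and 274 in neutrophil-like cells (0.978). Fosl2, which lacks the activation domain of Fos, was at 561 and 608 in neutrophil-like cells and at 314 and 439 in NK/ILC1-like cells (1.40).

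The Egr zinc finger factors are targets of the ERK pathway. Among the compared classes Egr1 was highest in neutrophil-like, Egr2 in macrophage-like and Egr3 in B-like cells. In neutrophil-like cells Egr1 was at 2005 CPM in PBS and 2064 in AKK, and a UMI was found in 79.2% and 79.9% of the thinned cells. In monocyte-like cells Egr1 was at 486 and 301, a ratio of 0.619 (0.580 to 0.661), with 51.0% and 37.7% of thinned cells. In macrophage-like cells it was at 796 and 567 (0.712). Egr2 was at 62.3 and 34.5 in monocyte-like cells (0.554) and at 121 and 131 in macrophage-like cells, so it did not follow Egr1 in the latter. Egr3 was at 64.6 and 109 in neutrophil-like cells, a ratio of 1.68 (1.54 to 1.84), and at 67.1 and 114 in B-like cells (1.70). It was at 15.7 and 6.95 in NK/ILC1-like cells, a ratio of 0.442 (0.277 to 0.700).

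The Nr4a orphan nuclear receptors, which follow antigen receptor and inflammatory signals, did not share a direction. Nr4a2 was at 205 CPM in PBS and 340 in AKK macrophage-like cells, a ratio of 1.66 (1.57 to 1.76), and at 39.4 and 68.6 in neutrophil-like cells, a ratio of 1.74 (1.55 to 1.96). In T-like cells it was at 415 and 342 (0.823). Nr4a1 was at 496 and 497 in neutrophil-like cells, at 393 and 342 in macrophage-like cells, and at 317 and 409 in NK/ILC1-like cells (1.29). Nr4a3 was at 509 and 562 in neutrophil-like cells and at 323 and 337 in macrophage-like cells. In NK/ILC1-like cells the family summed to 0.126% and 0.156%, a ratio of 1.24 (1.19 to 1.29).

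The Klf factors also differed by class. Klf4, a regulator of monocyte differentiation, was at 293 and 391 CPM in monocyte-like cells (1.33), at 325 and 362 in macrophage-like cells and at 137 and 78.4 in NK/ILC1-like cells (0.571). Klf6 was at 1214 and 963 in macrophage-like cells (0.793) and at 437 and 564 in NK/ILC1-like cells (1.29). Dusp1, a phosphatase that shuts off p38 and JNK, was at 1955 and 2239 in neutrophil-like cells (1.15) and at 1168 and 910 in macrophage-like cells (0.779). Dusp2, which acts on ERK in lymphocytes, was highest in NK/ILC1-like cells, at 833 and 744. The 2 phosphatases together were thus higher in AKK neutrophil-like cells, 0.215% and 0.246% (1.14), and lower in AKK macrophage-like cells, 0.131% and 0.101% (0.772).

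Atf3, a stress-induced repressor of inflammatory genes, was at 477 CPM in PBS and 296 in AKK macrophage-like cells, a ratio of 0.621 (0.590 to 0.654). It was at 399 and 528 in monocyte-like cells (1.32), at 200 and 236 in neutrophil-like cells (1.18) and at 52.0 and 32.4 in T-like cells (0.624). Thinned shares ran the same way in macrophage-like cells, at 51.5% and 41.1%, and in monocyte-like cells, at 52.3% and 58.9%. In T-like cells they were 7.89% (5.52 to 10.8) and 8.44% (6.66 to 10.5), so no direction can be read from them. Before thinning they were 26.9% and 18.1%. Btg2, which restrains proliferation, was at 840 and 906 in neutrophil-like cells and at 283 and 348 in monocyte-like cells (1.23). Ier2 was at 280 and 214 in macrophage-like cells (0.766) and at 413 and 453 in neutrophil-like cells. Ier5 was at 248 and 219 and at 611 and 567 in these classes.

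By class, the immediate early share in macrophage-like cells was 1.11% in PBS and 0.944% in AKK, a ratio of 0.849 (0.841 to 0.857). The median depth of this class was 16614.5 and 12794.5 UMIs, its mitochondrial share 2.73% and 2.15%, and its summed macrophage markers 8421 and 5884 CPM. Within 4 ranges of mitochondrial share the ratio was 0.770 to 0.863, and within 4 ranges of depth 0.734 to 0.967. Macrophage-like cells had 9 of 35 members past 1.5-fold, 3 higher and 6 lower in AKK, where 8.24% of measured genes were that much higher and 6.98% lower, and a median log2 ratio of -0.10 against 0.12 for all measured genes. Without the top cell of each library 34 members were measured, 2 higher and 5 lower. In neutrophil-like cells the share was 1.51% and 1.58%, a ratio of 1.05 (1.04 to 1.05), and 0.994 with the clusters weighted alike. The libraries filled different clusters of this class, cluster 3 with 505 PBS and 157 AKK cells and cluster 19 with 93 and 510. The class had 6 of 34 members past 1.5-fold, 2 higher and 4 lower, against 8.17% and 4.5% of all measured genes.

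The ratios of the immediate early sum in T-like, NK/ILC1-like and monocyte-like cells lay between 0.957 and 1.07. T-like cells were at 0.678% and 0.649% (0.957, 0.944 to 0.971), with 1 of 34 members at least 1.5-fold higher and 4 lower, against 4.27% and 6.53% of genes. NK/ILC1-like cells were at 0.936% and 1.0% (1.07, 1.06 to 1.09), with 0 of 33 members that much higher and 3 lower, against 5.71% and 6.63%. Classical monocyte-like cells were at 0.924% and 0.939% (1.02), with 2 of 34 members higher and 4 lower, against 12.9% and 7.47%. Their Egr family was at 0.0569% and 0.0346% (0.608, 0.572 to 0.646), and their remaining immediate early genes, Ier2, Ier5, Atf3 and Btg2, at 0.121% and 0.147% (1.21). Neutrophil markers in this class summed to 5817 CPM in PBS and 1998 in AKK and its mitochondrial share was 4.67% and 3.21%. Their part in the Egr difference was not tested.

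In B-like cells the Fos family was lower in AKK, 0.0767% and 0.0557% (0.726), and the Egr family higher, 0.0227% and 0.0328% (1.45). B-like cells had 2 of 30 members at least 1.5-fold higher and 1 lower, against 6.82% and 3.99% of genes. Tumour/epithelial-like cells were lower in AKK for immediate early genes, 0.370% and 0.309% (0.837, 0.824 to 0.850), and near equal for heat shock genes, 0.638% and 0.653%. They had 2 of 35 members higher and 1 lower, against 7.26% and 3.79% of genes. Myeloid precursor-like cells were higher in AKK for both lists, 0.463% and 0.581% for heat shock (1.25, 1.23 to 1.27) and 0.471% and 0.540% for immediate early (1.15). Of their 34 measured members 9 were at least 1.5-fold higher in AKK and 0 lower, against 9.04% of genes higher and 5.53% lower, and without the top cells 7 were. Neutrophil markers in that class summed to 65555 CPM in PBS and 29804 in AKK, and their part in the difference was not tested.

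Genes of neighbouring pathways were read from lists of names. Of 43 other immediate early genes, 41 were measured in macrophage-like cells, and 0 were at least 1.5-fold higher and 6 lower in AKK, against 8.24% and 6.98% of all measured genes, with a median log2 ratio of -0.16. Among them were Ppp1r15a, which restarts translation after stress, at 748 and 355 CPM (0.474), and Socs3, an inhibitor of cytokine signalling, at 338 and 192 (0.568). In neutrophil-like cells 2 of 40 were higher and 1 lower, against 8.17% and 4.5% of all genes, and Cd69, an early activation antigen, was at 116 and 207 (1.78). In monocyte-like cells 4 of 39 were higher and 6 lower, against 12.9% and 7.47%, with Klf10 at 91.8 and 161 (1.75) and Ppp1r15a at 562 and 270 (0.481). Of the other cytosolic chaperones, 27 of 33 measured were above 1 in T-like cells, as were 48.7% of all genes, with a median log2 ratio of 0.21 beside -0.01. Among them was Cct3, a subunit of the cytosolic chaperonin, at 59.6 and 94.3 (1.58). In macrophage-like cells 27 of 33 were above 1, as were 64.1% of all genes, with a median of 0.24 beside 0.12. In neutrophil-like cells 25 of 29 were, as were 59.0% of all genes, with a median of 0.22 beside 0.06. Not every class was alike. In NK/ILC1-like cells 14 of 31 were above 1 and in B-like cells 12 of 29, beside 52.8% and 56.1% of all genes. In monocyte-like cells 22 of 31 were, in tumour/epithelial-like 22 of 34 and in precursor-like 25 of 31, beside 64.6%, 59.3% and 65.3%. Over all kept cells 17 of 36 were, beside 52.4%.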

How the data were processed

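The deposited matrices hold raw UMI counts per gene and barcode, written by Cell Ranger 7.1.0 per the file headers. The submitters' processing notes name Cell Ranger 5.0.1 and the build mm10 instead. The annotation release, strand and intron setting were not given in the sources used here. Levels may include intronic reads. From 5088 PBS and 6610 AKK barcodes (64731604 and 74495998 UMIs), those with under 200 genes or at least 15% mitochondrial UMIs were removed (255 and 93), then the highest Scrublet scores at 0.8% per 1000 barcodes (187 and 340).

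Both libraries were clustered together in scanpy 1.11.5 (2000 variable genes without the members and related stress genes, 30 components, 15 neighbours, Leiden at resolution 1.0). Clusters were named from 22 marker sets. The rule for shallow clusters was tightened, classical monocyte-like cells were added to the classes described in full, and the promoter windows were chosen, after seeing the data. UMIs were summed per class and library where each library had 100 or more cells of the class, and ratios were given exact conditional binomial 95% intervals. A gene was measured in a class with at least 50 UMIs over both libraries. The intervals were tested on class sums simulated with Poisson counting error, the error they assume. That test cannot show how they hold for genes whose UMIs lie in few cells.

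The members and all lists were chosen with earlier results of these data known. All 35 members were named, and of the related lists at most the 3 highest and 3 lowest past 1.5-fold in a class. No p-value was computed. Alternatives changed the UMI minimum, doublet removal, mitochondrial limit, class calls, weights of cells and clusters, centring, and the genes summed. Leaving out Hspa1a and Hspa1b, neutrophil-like cluster 4 or the top cell of each library was added after seeing the data.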

Additional observations from a re-analysis of the deposited data

Results flagged for a closer look

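A total of 5 members stood on opposite sides of 1.5-fold in a pair of classes, and none of these differences between classes was tested. Hspa1a was 2.23 in myeloid precursor-like cells (AKK over PBS, interval 1.66 to 3.01) and 0.197 in macrophage-like cells (0.170 to 0.226). Hspa1b was 2.61 (1.88 to 3.66) and 0.317 (0.282 to 0.355) in the same classes. Both precursor-like values rested on 1 AKK cell, and without the cell with the most UMIs in each library they were 0.722 and 1.08. Dnajb4 was 1.5 (1.15 to 1.97) in precursor-like and 0.626 (0.527 to 0.740) in macrophage-like cells, and the precursor-like value became 0.907 with each cell weighted alike. Egr1 was 1.52 (1.42 to 1.63) in precursor-like and 0.619 (0.580 to 0.661) in classical monocyte-like cells. Egr3 was 1.70 (1.34 to 2.17) in B-like and 0.442 (0.277 to 0.700) in NK/ILC1-like cells. No group had enough libraries to look for a library that stands apart.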

How the results depend on the processing

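No paired analysis was possible because each group is 1 library. Ratios are AKK over PBS. Centred on the median ratio of all measured genes, the heat shock ratio was 0.805 in neutrophil-like cells and turned to 0.947 in macrophage-like, 0.992 in classical monocyte-like and 0.980 in tumour/epithelial-like cells, and the immediate early ratio was 1.0 in neutrophil-like, 0.780 in macrophage-like, 1.06 in NK/ILC1-like and 0.925 (turned) in monocyte-like cells. With classes from each cell's own marker score, heat shock was 0.926 in neutrophil-like and 1.10 in macrophage-like cells, and immediate early 0.806 in macrophage-like cells, 0.937 in T-like cells and 1.06 in monocyte-like cells. With clusters weighted alike, heat shock over all cells turned to 1.03, and immediate early was 0.994 (turned) in neutrophil-like and 1.04 in NK/ILC1-like cells. With each cell weighted alike, heat shock was 0.791 in neutrophil-like, 1.14 in T-like and 1.06 in monocyte-like cells. Immediate early was then 1.02 in neutrophil-like, 1.0 (turned) in T-like, 0.876 in macrophage-like cells, 1.09 in NK/ILC1-like and 1.07 in monocyte-like cells, and Hspa1b (0.404) and Egr3 (0.752) in tumour/epithelial-like and Dnajb4 (0.907) in precursor-like cells turned. With the members kept in the clustering, immediate early was 0.840 in macrophage-like cells and heat shock 1.05 in monocyte-like cells. With a mitochondrial limit of 5%, immediate early was 0.864 in macrophage-like cells, and in monocyte-like cells it was 0.925 (turned) and heat shock 1.04. With no doublets removed, macrophage-like heat shock was 1.05 and immediate early 0.862, and Hsph1 in monocyte-like cells turned to 0.977. Without Hspa1a and Hspa1b, heat shock was 0.909 in neutrophil-like and 1.11 in macrophage-like cells. Without Hspa8, heat shock was 0.977 (turned) in macrophage-like and 0.980 in NK/ILC1-like cells, and without Junb immediate early was 0.933 in T-like cells, 0.986 (turned) in monocyte-like cells and 0.813 in macrophage-like cells. Without neutrophil-like cluster 4 heat shock in neutrophil-like cells turned to 1.02 and immediate early was 1.10. Without the top cell of each library Hspb1 in macrophage-like cells turned to 0.584 and Hspa1a in precursor-like cells to 0.722.

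The count of members past 1.5-fold in NK/ILC1-like cells went from 3 to 5 with a minimum of 1 UMI or with each cell weighted alike. In T-like cells it went from 5 to 3 with a minimum of 200 UMIs or with 5 CPM added to both levels. Of the 29 instances of a member past 1.5-fold in the 5 classes described in full, 28 or 29 kept their direction and 22 to 28 stayed past that fold under each alternative run on all of them. Apart from the values given, the other main results stayed within their counting intervals or within 1.5 times their count. Small classes limit low genes. Ratios of summed shares near 1 moved to either side of it under these settings, the cause was not tested, and no setting stands in for a second library.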

Other observations

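Genes of the unfolded protein response of the endoplasmic reticulum, which handles misfolding in the secretory pathway and is separate from Hsf1, were mostly higher in AKK. Of 24 such genes, 22 were above 1 over all cells and 6 at least 1.5-fold higher, against 52.4% and 6.89% of all measured genes, with a median log2 ratio of 0.49 against 0.02. Hsp90b1, the Hsp90 of that compartment, was at 371 CPM in PBS and 728 in AKK over all cells (1.96), but these sums include 52 PBS and 222 AKK plasma-like cells. Within macrophage-like cells 22 of 24 were above 1 and 8 at least 1.5-fold higher, against 64.1% and 8.24% of all genes, with a median of 0.39 against 0.12. Creld2 was at 14.8 and 33.8 CPM there (2.28), Sdf2l1 at 27.4 and 55.4 (2.02) and Pdia6, a disulfide isomerase, at 118 and 211 (1.79). In T-like cells 19 of 24 were above 1, against 48.7% of all genes, with a median of 0.22 against -0.01, and Sdf2l1 was at 6.33 and 16.3 (2.57). In precursor-like cells 23 of 24 were above 1, against 65.3%, with a median of 0.48 against 0.11, and Ern1, a sensor of the pathway, was at 113 and 228 (2.02). Neutrophil-like cells had 17 of 24 above 1, against 59.0%, and a median of 0.12 against 0.06.

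Classes too small to be compared gave these values. In cDC1-like cells, 41 in PBS and 52 in AKK, heat shock members took 0.289% and 0.389% of UMIs, the Fos family 0.120% and 0.0759%, and the Egr family 0.00948% and 0.0267%. In gamma-delta T-like cells, 25 and 102, heat shock members took 0.164% and 0.227%. A basophil/mast-like cluster led by Prss34 and Mcpt8 had 1 PBS and 35 AKK cells, and immediate early members took 4.83% of UMIs in the latter. Among genes upstream of the immediate early response, Mef2c was at 42.8 and 89.5 CPM in monocyte-like cells (2.09) and at 56.1 and 103 in macrophage-like cells (1.83). This was not particular to these classes, with ratios of 2.17 in tumour/epithelial-like, 1.59 in NK/ILC1-like and 1.55 in neutrophil-like cells. In T-like, B-like and precursor-like cells Mef2c was not past 1.5-fold. Elk3 was at 282 and 129 in monocyte-like cells (0.456).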
